A study of Rattus norvegicus with 2 samples.

Results

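The 4 connexin genes of heart and vessels, *Gja1*, *Gja4*, *Gja5* and *Gjc1*, were followed by symbol through 11 clusters of neonatal rat cardiac cells, out of 25399 genes in the list. Cells came from hearts of Sprague-Dawley rats aged 1 to 3 days, with both sexes pooled, were enriched on a Percoll gradient and were cultured for 2 h with saline (control) or with lipopolysaccharide (LPS) at 1 µg/ml. Each condition gave 1 library of the 10X Genomics 3′ kind, so that the treatment and any difference in handling cannot be told apart and no test was possible. By the study's methods the tissue was ventricular apex, and the low-density fraction that was kept held mainly cells other than ventricular myocytes.

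Connexins are membrane proteins that assemble into gap junction channels, through which ions and small molecules pass directly from cell to cell. *Gja1* encodes connexin Cx43, the main connexin of working ventricular muscle, which lies at the intercalated disc beside desmosomes and adherens junctions. *Gja5* encodes Cx40 of atrial muscle, the ventricular conduction system and arterial endothelium, *Gja4* encodes Cx37 of endothelium, and *Gjc1* encodes Cx45 of nodal tissue and vascular smooth muscle.

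Levels are unique molecular identifiers (UMIs, counts of captured transcripts) summed over a cluster and given per 1000000 UMIs of that cluster (CPM). Intervals are at 95% and cover counting error only. A UMI of a 3′ library stands for a molecule whatever its length, and differences in capture between genes were not corrected. The control library held 11531 cells with a median of 12479 UMIs and the LPS library 12689 cells with a median of 9432, and 194 cell barcodes occurred in both, 1.68% of the control and 1.53% of the LPS barcodes. The cluster numbers and cell types are the authors' own, and since the clusters were made from the expression of these same cells, differences between clusters are described without a test. Clusters 0, 1 and 7 were named Fibroblast, cluster 3 ICA (intrinsic cardiac adrenergic) and Cardiomyocyte, clusters 4 and 5 Endothelial and cluster 6 Macrophages. The marker lists were high where these names place them, with a summed level of 7 cardiomyocyte genes of 7016 and 7408 CPM (control and LPS) in cluster 3 and a summed level of 7 endothelial genes of 2432 and 2135 CPM in cluster 4 and of 1407 and 1165 CPM in cluster 5. Clusters 2, 8, 9 and 10 have no type. In cluster 2 the summed level of the 8 mural genes (pericyte and smooth muscle), 2550 and 2299 CPM, was the highest of clusters 0 to 6. All 8 were detected there, as they were in clusters 0, 1, 4 and 6. A member of the list stood higher in cluster 3, at 176% and 234% of its level in cluster 2. In cluster 8 mesothelial or epicardial genes reached 523 and 577 CPM. In cluster 9 the 8 fibroblast genes summed to 17272 and 14504 CPM, more than in the Fibroblast clusters 0, 1 and 7. Its cardiomyocyte genes summed to 1156 and 1309 CPM.

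The sequence before the start is shown for *Gja4*, whose level differed most between the libraries, beside that of the other members for which there is an entry. RefSeq (GRCr8) gave a promoter entry for 3 of the 4 genes and none for *Gjc1*. The 250 bases before the start are printed 5′ to 3′ on the gene's strand, at chr20:36302314-36302563 (plus strand) for *Gja1*, at chr5:144920325-144920574 (minus strand) for *Gja4* and at chr2:187290977-187291226 (plus strand) for *Gja5*. Capitals mark a match on either strand to the motif of KLF (CACCC), RBPJ (TGGGAA), T-box (TCACACC), AP-1 (TGANTCA), SP1 (GGGCGG), NF-κB or MEF2.
Gja1: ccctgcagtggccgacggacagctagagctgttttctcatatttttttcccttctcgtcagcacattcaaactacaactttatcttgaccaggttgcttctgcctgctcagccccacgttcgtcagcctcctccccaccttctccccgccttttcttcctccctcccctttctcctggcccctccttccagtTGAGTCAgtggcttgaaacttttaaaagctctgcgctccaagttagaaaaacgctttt
Gja4: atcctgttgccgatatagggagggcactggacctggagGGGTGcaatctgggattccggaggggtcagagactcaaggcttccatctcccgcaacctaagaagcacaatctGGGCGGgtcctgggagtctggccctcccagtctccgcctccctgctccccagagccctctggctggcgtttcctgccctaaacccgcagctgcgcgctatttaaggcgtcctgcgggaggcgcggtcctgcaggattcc
Gja5: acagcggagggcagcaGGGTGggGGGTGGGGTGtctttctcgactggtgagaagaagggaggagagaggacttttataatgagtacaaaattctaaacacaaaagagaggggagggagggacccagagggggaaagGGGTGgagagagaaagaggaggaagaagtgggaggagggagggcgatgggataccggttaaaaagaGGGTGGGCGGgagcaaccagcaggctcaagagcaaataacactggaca
The AP-1 letters of *Gja1*, 58 to 52 bases before the start, occur in 6.34% of 33469 promoter windows of this length. *Gja5* held 5 KLF matches, some of them side by side, and *Gja4* held 1, a motif present in 49.2% of windows. Both also held 1 SP1 match (30.5% of windows), which in *Gja5* overlaps the KLF match nearest the start by 1 base. None of the 3 windows held the RBPJ (22.1% of windows), T-box (3.22%), NF-κB (6.33%) or MEF2 (2.96%) letters. These are matches of letters, not sites, and the genome build behind the UMI counts is not given in the sources used here.

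The 4 genes carried nearly all connexin transcripts of these cells. They summed to 24459 UMIs over both libraries, 99.1% of the UMIs of connexin genes, and the other 15 connexin genes in the list summed to 234. Of those 15, 5 had none. *Gja6* was not analysed here. The level of each member differed between clusters, as the plot of levels by cluster shows. *Gja1* was highest in the cardiomyocyte cluster, *Gja4* in the endothelial clusters, *Gja5* in the cardiomyocyte cluster far below *Gja1*, and *Gjc1* in cluster 2.

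**Figure D1:**
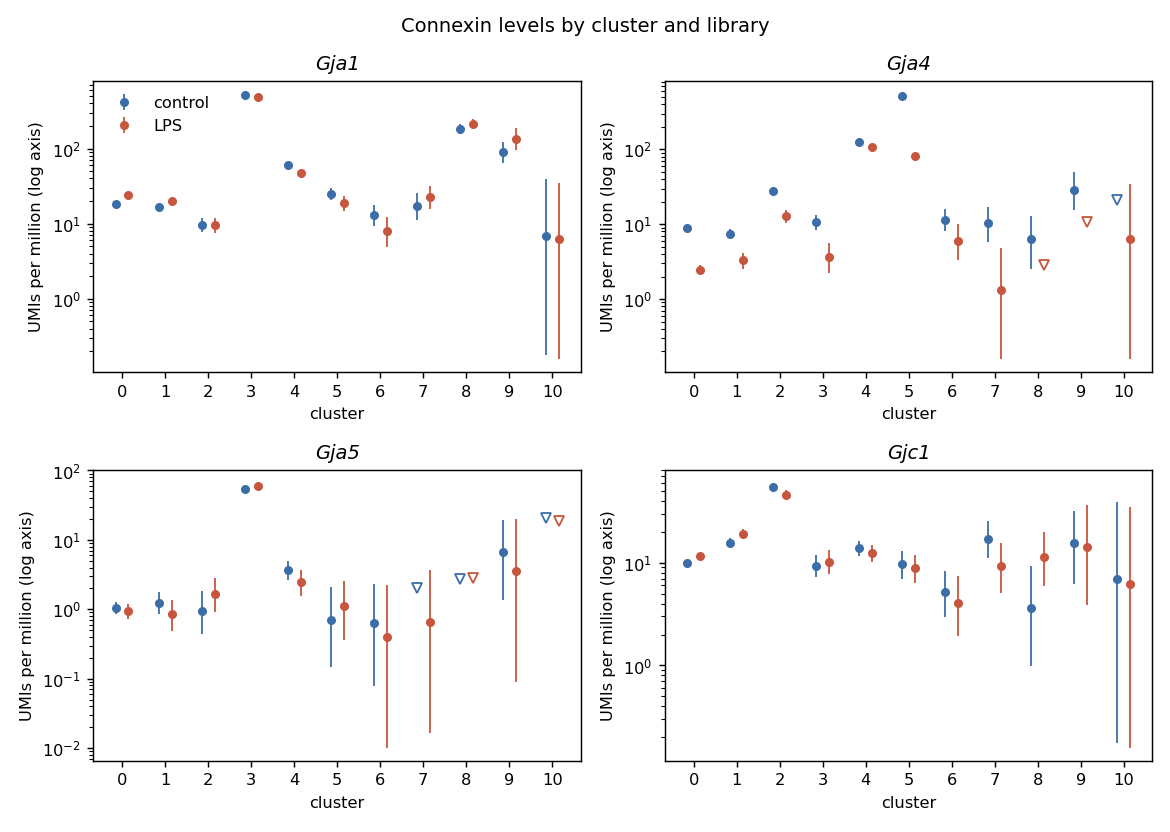
CPM (log axis) of each connexin in clusters 0 to 10, in the control (blue) and LPS (red) library, with exact 95% counting intervals as bars. Open triangles mark a count of 0, placed at the limit that 3 UMIs would give. *Gja4* in cluster 5 stood at 523 CPM in control and 81.1 CPM in LPS, while *Gja1* in cluster 3 stood at 511 and 486.

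*Gja4* showed the widest gap between the libraries. In cluster 5 it had 2224 UMIs in the control library, 523 CPM (502 to 546), and 369 UMIs in the LPS library, 81.1 CPM (73.0 to 89.8). LPS over control came to 0.155 (0.138 to 0.173), which is 6.46-fold lower in the LPS library. Of the 7824 genes with at least 50 UMIs in this cluster, 8 genes, *Gja4* among them, lay as low as this or lower (0.102%), against a median ratio of 0.962 over those genes. In cluster 4, the other endothelial cluster, it stood at 126 CPM (119 to 133) in control and at 107 CPM (101 to 114) in LPS, a ratio of 0.849 (0.783 to 0.921). In summed CPM the order of the endothelial clusters was therefore turned around. Cluster 5 was 4.16-fold (3.89 to 4.45) above cluster 4 in control and at 0.758 (0.672 to 0.855) of it in LPS. The difference between these 2 ratios was not tested, as there is 1 library per condition. With both clusters pooled, a choice made after seeing the data, *Gja4* stood at 236 CPM in control and 98.7 CPM in LPS, a ratio of 0.419 (0.393 to 0.445).

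The gap was seen in the number of cells with the transcript and in the number of UMIs per cell. After thinning all cells to an equal 3000 UMIs, drawn at random, 63.7% of the control cells of cluster 5 (58.4 to 68.8) and 18.6% of the LPS cells (15 to 22.6) held a *Gja4* UMI. Unthinned, a UMI was held by 83.4% and 35.7%, with a median cell of 10172 and 8998 UMIs. Cells with at least 2 *Gja4* UMIs made up 41.4% of control and 5.05% of LPS cells, and the mean among cells with any was 2.66 and 1.36 UMIs. In cluster 4 the thinned shares were 22.5% and 18.2%, and cells with at least 5 UMIs were as common in LPS (10 of 796) as in control (9 of 723). By share of cells the order of the 2 clusters was thus not turned around in LPS, at 18.6% in cluster 5 and 18.2% in cluster 4. Among LPS cells with a UMI the mean was 1.36 in cluster 5 and 1.78 in cluster 4, and 1 of 436 cells of cluster 5 held at least 5 UMIs. For comparison, fibroblasts of cluster 0, taken as a type that should lack *Gja4*, held a UMI in 2.64% and 0.612% of thinned cells, at median depths of 12968 and 9822.

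**Figure D2:**
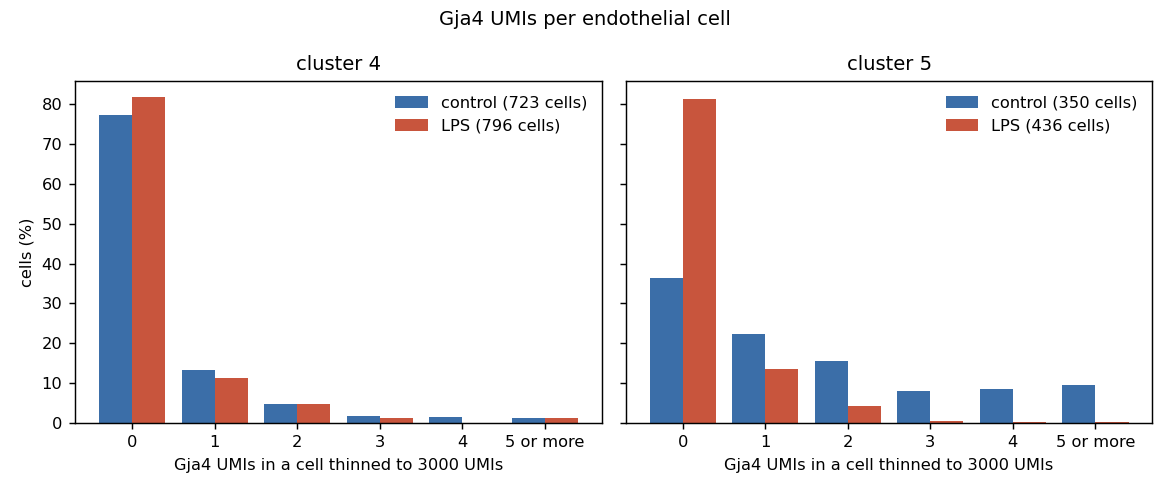
Percent of cells by number of *Gja4* UMIs, after each cell was thinned to 3000 UMIs, in endothelial clusters 4 (left) and 5 (right), control in blue and LPS in red. In cluster 5 the cells with at least 2 UMIs were 41.4% in control and 5.05% in LPS, while in cluster 4 they were 9.27% and 7.04%.

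Of the genes of the endothelial, arterial and venous lists in cluster 5, *Aplnr*, the apelin receptor, came closest to this gap. It had 160 UMIs in control, 37.7 CPM, and 38 in LPS, 8.35 CPM, a ratio of 0.222 (0.151 to 0.317). In thinned cells it had 44 and 5 UMIs, a ratio of 0.0912 (0.0282 to 0.229), which lies below that of *Gja4* there, 0.149 (0.120 to 0.183), with intervals that overlap. All 7 measured endothelial markers had UMIs in both libraries, and 5 of them were lower in LPS with an interval that excludes 1. These were *Cldn5*, the tight junction claudin of endothelium, at a ratio of 0.380 (0.296 to 0.484), *Emcn*, a surface sialomucin, at 0.426 (0.371 to 0.489), *Kdr*, the VEGF receptor, at 0.536, *Egfl7*, a secreted endothelial protein, at 0.707 and *Tie1*, a receptor kinase, at 0.776. *Esam*, an adhesion molecule, had a ratio of 1.09 (0.997 to 1.18), and *Cdh5*, the cadherin of endothelial adherens junctions, was higher, at 228 CPM in control and 294 CPM in LPS (ratio 1.29, 1.18 to 1.40). The 6 venous genes summed to 870 CPM in control and 1251 CPM in LPS, and the higher sum came from *Selp*, the P-selectin of activated endothelium, which stood at 71.5 and 656 CPM, a ratio of 9.17 (8.15 to 10.3). The other 5 venous genes each had a ratio below 1, *Vwf* with an interval that spans 1, and without *Selp*, an exclusion made after seeing the data, the list summed to 799 and 595 CPM. Of the 8 arterial genes, *Efnb2*, *Dll4* and *Sox17* were higher in LPS in this cluster and *Cxcr4* and *Fbln5* lower, with intervals that exclude 1, while *Hey1* had no UMI. In thinned cells, of these 5 genes only *Efnb2* kept such an interval, at 2.25 (1.22 to 4.36). *Sox17* fell to the other side of 1 there, at 0.886 (0.739 to 1.06). *Dll4* (1.61), *Cxcr4* (0.937) and *Fbln5* (0.321) kept their direction with intervals that span 1. The summed fibroblast genes in this cluster were 3068 and 2201 CPM. The part of these shifts in the *Gja4* value was not tested.

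Outside the endothelium *Gja4* was low and again lower in LPS. In cluster 2 it stood 3.12-fold (2.70 to 3.59) above cluster 0 in control and 5.22-fold (4.07 to 6.67) in LPS. Cluster 8 held 7 UMIs in control and 0 in LPS, and cluster 9 held 13 and 0, where a count of 0 allows up to 3 UMIs. In fibroblast cluster 0 it stood at 8.91 CPM (8.30 to 9.54) and 2.44 CPM (2.10 to 2.82), a ratio of 0.274 (0.232 to 0.323), in fibroblast cluster 1 at 7.37 and 3.28 CPM, in cluster 2 at 27.8 and 12.7 CPM, in cluster 3 at 10.6 and 3.65 CPM and in macrophages (cluster 6) at 11.6 and 6.03 CPM. Beyond 1.5-fold, *Gja4* was lower in LPS in 5 of the 6 clusters numbered 0 to 5, the exception being cluster 4. In those 5 clusters (0, 1, 2, 3 and 5), 19.7%, 13.1%, 13.3%, 5.26% and 13.0% of all genes lay past that fold in the same direction, and in cluster 4 13.1% did. Free RNA in droplets gives UMIs to cells that do not make them. In control cluster 0 *Gja4* stood at 1.70% of its level in cluster 5, below the 2.66 to 25% at which the 7 endothelial markers stood, and in LPS at 3.01% against 2.71 to 35.9%. In cluster 2 it stood at 5.30% against 4.29 to 26.5% (median marker 8.10%) in control and at 15.7% against 3.87 to 36.7% (median marker 7.82%) in LPS. These ranges depend on the choice of cluster 5 as reference. The sum of the markers was higher in cluster 4, at 173% of cluster 5 in control and 183% in LPS. Single markers there stood at 92.5 to 1129% and 97.8 to 2104%, and *Gja4* at 24.1% and 132%. The summed endothelial markers in cluster 0 were 96.7 CPM in control and 68.0 CPM in LPS. The part of such RNA in the low levels was not tested.

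**Figure D3:**
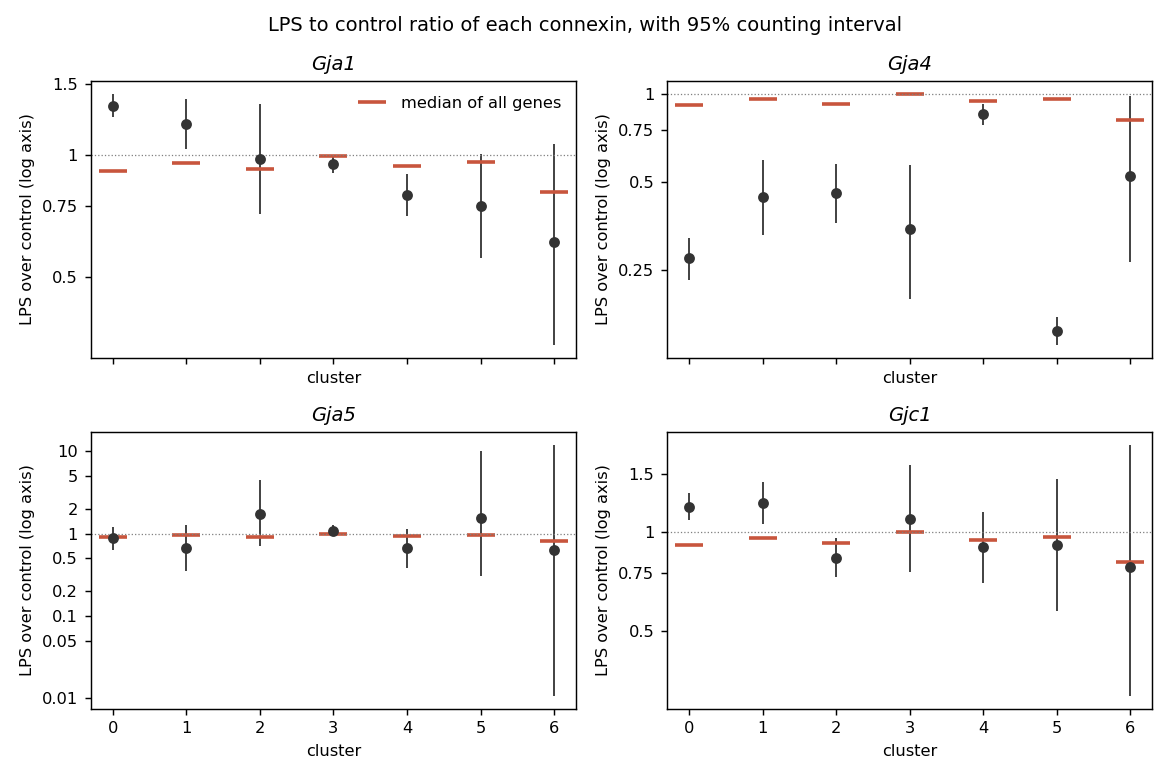
Ratio of LPS to control CPM (log axis) of each connexin in clusters 0 to 6, with exact 95% counting intervals, and the median ratio of all genes with at least 50 UMIs in the cluster (red dash). *Gja4* lay far below the median in cluster 5 (0.155) and near it in cluster 4 (0.849), while *Gja1* lay above it in clusters 0 and 1.

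*Gja1* was by far the most abundant connexin of cluster 3, which holds ICA cells and cardiomyocytes, and stood at similar levels in both libraries. In cluster 3 it had 3614 UMIs in control, 511 CPM (494 to 528), and 2661 UMIs in LPS, 486 CPM (467 to 504). The ratio was 0.951 (0.904 to 1.00). Cluster 3 held 52.8% of the *Gja1* UMIs of the control and 45.9% of those of the LPS library with 7.25% and 7.33% of the cells. A *Gja1* UMI was present in 74.8% and 72.4% of its cells after thinning, and in 95% and 88.9% before, at median depths of 7526 and 5269. The corresponding shares of macrophages, the named type with the lowest *Gja1* level, were 3.91% and 2.41%.

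The *Gja1* ratio lay above 1 in fibroblasts and below 1 in endothelial cells, a difference between cell types that was not tested. In fibroblasts of cluster 0 it stood at 18.3 CPM (17.4 to 19.2) in control and 24.2 CPM (23.1 to 25.3) in LPS, a ratio of 1.33 (1.24 to 1.42), and in cluster 1 at 16.8 and 20.1 CPM, a ratio of 1.19 (1.04 to 1.37). In endothelial cluster 4 it stood at 59.5 CPM (55.1 to 64.2) and 47.5 CPM (43.2 to 52.0), a ratio of 0.798 (0.707 to 0.900), and in cluster 5 at 24.9 and 18.7 CPM, a ratio of 0.749 (0.556 to 1.01). None of these reached 1.5-fold. The share of all genes past 1.5-fold higher in LPS was 6.88% in cluster 0, 6.42% in cluster 1, 5.78% in cluster 2, 4.36% in cluster 3, 5.58% in cluster 4 and 9.5% in cluster 5, and no member with at least 50 UMIs was among them. The median gene shifted by more than 0.1 (log2) in clusters 0 (-0.13), 2 (-0.12) and 6 (-0.30), and relative to it *Gja1* in cluster 0 was 0.54 higher on the log2 scale.

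Cluster 8, with mesothelial or epicardial genes, had the next highest *Gja1* level after cluster 3, at 183 CPM (158 to 210) in control and 215 CPM (188 to 245) in LPS. That was 35.8% and 44.3% of its level in cluster 3, where the 7 cardiomyocyte markers stood at 1.81 to 7.45% in control and at 0 to 2.06% in LPS. In cluster 4 *Gja1* stood at 11.7% and 9.77% of its level in cluster 3, above the 1.12 to 2.74% and 0.562 to 2.24% of the cardiomyocyte markers, and in cluster 0 at 3.58% and 4.98%, above their 0.989 to 2.27% and 0.487 to 1.86%. In cluster 2 it lay within the range of those markers, at 1.90% and 1.96% against 0.893 to 4.62% and 0.651 to 3.97%. The small cluster 9, with 66 control and 58 LPS cells, stood at 88.9 CPM (63.5 to 121) and 136 CPM (96.2 to 187), within the range of the cardiomyocyte markers (11.9 to 36.0% and 4.89 to 48.2%) at 17.4% and 28.0% of cluster 3. Cluster 10, of 16 and 26 cells, held at most 1 UMI of each member in a library.

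Most *Gja5* UMIs lay in cluster 3, with 386 of its 570 control UMIs and 325 of its 457 LPS UMIs there, 67.7% and 71.1%. Its level was 54.5 CPM (49.2 to 60.3) in control and 59.3 CPM (53.0 to 66.1) in LPS, a ratio of 1.09 (0.935 to 1.26). A UMI was seen in 12.0% and 13.6% of thinned cells (22.4% and 19.6% unthinned), and in 0 of 281 control and 0 of 290 LPS macrophages, where the limit that 3 cells would give is 1.07% and 1.03%. Unthinned, 2 of 281 and 1 of 291 macrophages held a UMI. In endothelial cluster 4 it stood at 3.69 CPM (2.65 to 5.0) in control and 2.47 CPM (1.58 to 3.67) in LPS, 6.76% (4.85 to 9.17) and 4.16% (2.66 to 6.19) of its level in cluster 3, above the range of the cardiomyocyte markers given above. In cluster 0 it was at 1.06 and 0.936 CPM, within their range, and in cluster 8 no UMI was seen in either library.

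Within cluster 3, the cells with a *Gja5* UMI after thinning (100 in control, 126 in LPS) also held more *Hcn4*, the pacemaker channel of the conduction system. *Hcn4* stood at 40.0 CPM in control cells with *Gja5* (12 UMIs) and 15.8 CPM in those without (35 UMIs), a ratio of 2.52 (1.19 to 4.98), and at 58.2 CPM (22 UMIs) and 14.6 CPM (35 UMIs) in LPS cells, a ratio of 3.99 (2.23 to 7.0). This gene was singled out after its values were seen. The summed conduction list, of whose 6 genes 4 had UMIs in each library, had a ratio of 1.59 (0.914 to 2.63) in control and 2.12 (1.35 to 3.23) in LPS. *Hcn4* itself gave 12 of the 19 UMIs of this list in control cells with *Gja5* and 22 of the 30 in LPS cells. *Cacna1g*, the T-type calcium channel, had ratios of 1.05 and 0.839. *Tbx3* had 0 UMIs in cells with *Gja5* in both libraries, and 3 and 2 in those without. The cardiomyocyte list was lower in cells with *Gja5*, at 0.839 (0.799 to 0.879) and 0.907 (0.871 to 0.945), and *Myl3*, the ventricular light chain, at 0.658 and 0.868. *Nppa*, the atrial natriuretic peptide gene, did not keep 1 direction, at 0.659 in control and 1.11 in LPS. Cells of 1 library are not replicates, so these ratios are descriptions. *Gja5* and *Gja1* occurred together in 71 control cells, against 74.8 if each were spread independently over the cells, and in 85 LPS cells, against 91.2.

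**Figure D4:**
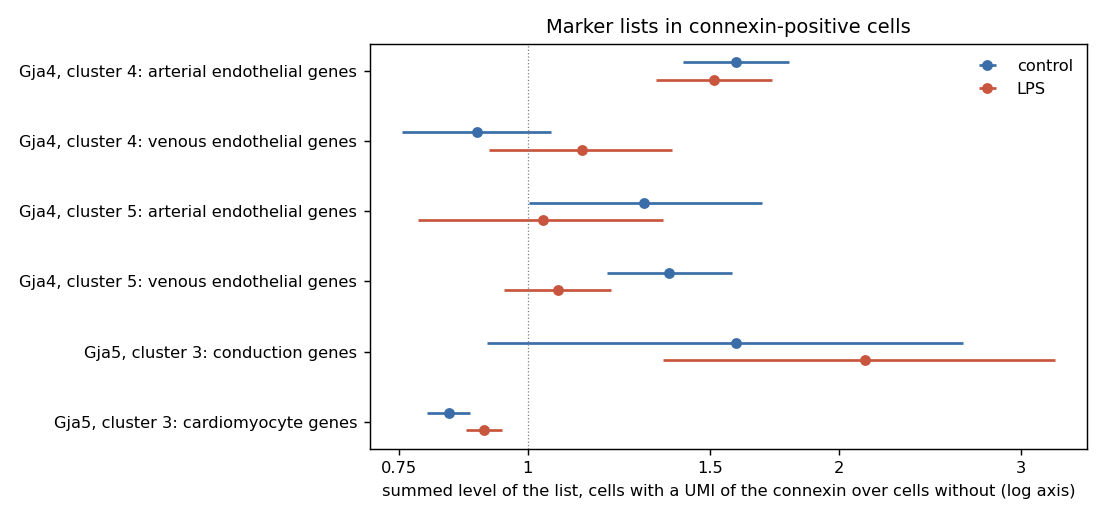
Summed CPM of marker lists in cells with a UMI of a connexin over that in cells without (log axis), after thinning to 3000 UMIs, control in blue and LPS in red, bars exact 95% counting intervals. Arterial genes were higher in cluster 4 cells with *Gja4* in both libraries (1.59 and 1.52). The summed conduction list had ratios of 1.59, with an interval that spans 1, and 2.12 in cluster 3 cells with *Gja5*. *Hcn4* alone gave 12 of its 19 control and 22 of its 30 LPS UMIs in those cells.

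Endothelial cells with *Gja4* were set against those without it in each cluster, and the difference between the clusters was not tested. In cluster 4 the arterial list was higher in cells with *Gja4*, at 855 CPM against 538 CPM in control, a ratio of 1.59 (1.41 to 1.79), and at 738 CPM against 487 CPM in LPS, a ratio of 1.52 (1.33 to 1.72). *Unc5b*, a netrin receptor of endothelium, had ratios of 2.34 and 3.33, *Dll4*, a Notch ligand of arterial endothelium, 2.53 and 3.19, *Efnb2*, the arterial ephrin, 2.00 and 1.87, and *Sox17*, an arterial transcription factor, 1.81 and 1.56. These were picked from the 8 genes of the list after their values were seen, and *Cxcr4*, its most abundant gene here, had 1.21 and 1.07. The venous list had ratios of 0.894 (0.756 to 1.05) and 1.13 (0.916 to 1.38). In control cluster 5 the arterial list was also higher in cells with *Gja4*, at 299 CPM against 231 CPM, a ratio of 1.29 (1.00 to 1.68), with *Sox17*, which gave most of its UMIs, at 1.36 (1.02 to 1.84). In LPS cells of cluster 5 the arterial ratio was 1.03 (0.782 to 1.35). In control cluster 5 the venous list was higher in cells with *Gja4*, at 1054 CPM against 769 CPM, a ratio of 1.37 (1.19 to 1.58). Of its 6 genes, *Selp* (2.80, 1.45 to 5.93) and *Plvap* (1.45, 1.24 to 1.71), the diaphragm protein of fenestrated and venous endothelium, had intervals above 1. *Nr2f2* (1.33) and *Vwf* (1.14) lay above 1 and *Ephb4* (0.920) and *Aplnr* (0.683) below it, with intervals that span 1. In LPS cells of cluster 5 the venous ratio was 1.07 (0.949 to 1.20). The endothelial list itself was higher in cells with *Gja4* in all 4 sets of cells, at 1.11 to 1.27, though in LPS cluster 5 the interval spans 1 (0.978 to 1.26), and the fibroblast list lower, at 0.795 to 0.895. Their part in the arterial and venous ratios was not tested.

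*Gja4* and *Gja1* shared cells more often than independent spread would give in cluster 4, in 43 control cells against 25.5 and in 26 LPS cells against 17.1, and not in cluster 5 (15 against 15.3, 4 against 4.83). Thinned to 1500 UMIs, the control count of cluster 4 was 8 against 7.05 and the LPS count 10 against 5.09. *Gja4* and *Gja5* shared 5 control and 4 LPS cells of cluster 4, of 8 cells with *Gja5* in each library, against 1.80 and 1.46. Thinned to 1500 UMIs, they shared 2 of 5 control and 0 of 3 LPS cells with *Gja5*.

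*Gjc1* was highest in cluster 2, in which the sum of the mural genes was highest. It stood at 54.8 CPM (50.1 to 59.7) in control and 45.7 CPM (41.3 to 50.5) in LPS, a ratio of 0.835 (0.729 to 0.955). A UMI was seen in 15.8% and 14.7% of thinned cells (33.6% and 22.9% unthinned, at median depths of 6854 and 5082), against 1.07% and 1.03% in macrophages. Fibroblasts of cluster 0, which made up 57.2% and 55.4% of the cells, held 42.6% and 45.8% of the *Gjc1* UMIs at 9.86 and 11.7 CPM, a ratio of 1.19 (1.08 to 1.31). In cluster 1, whose cycling genes summed to 475 and 460 CPM, *Gjc1* stood at 15.6 and 19.1 CPM, a ratio of 1.22 (1.06 to 1.42). That was 1.58-fold (1.40 to 1.79) and 1.62-fold (1.44 to 1.83) above cluster 0. Relative to cluster 2, *Gjc1* stood at 18.0% and 25.7% in cluster 0, within the 2.89 to 38.6% and 2.33 to 37.0% of the 8 mural genes. In cluster 1 it stood at 28.4% and 41.7%, within their 2.62 to 36.6% and 1.45 to 45.5%. The part of free RNA in these fibroblast levels was not tested. *Gjc1* stood at 13.8 and 12.3 CPM in cluster 4, at 9.65 and 8.79 CPM in cluster 5, at 9.32 and 10.2 CPM in cluster 3 and at 5.14 and 4.02 CPM in macrophages. The intervals of the 2 libraries overlapped in each of these 4 clusters.

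The make-up of the 4 connexins differed between several clusters. In cluster 3 *Gja1* made up 87.3% and 86.9% of their UMIs and *Gja5* 9.32% and 10.6%. In cluster 8 *Gja1* made up 94.9% and 95%. In cluster 4 *Gja4* made up 62.1% and 63.2% and *Gja1* 29.3% and 28.1%. In cluster 5 *Gja4* made up 93.7% in control and 74.0% in LPS, where *Gja1* made up 17.0%. In cluster 2 *Gjc1* made up 58.8% and 65.6%, and in cluster 0 *Gja1* made up 47.9% and 61.5%. In macrophages *Gja1* made up 43.2% (33.0 to 53.7) and 43.5% (28.9 to 58.9). The control interval there overlapped that of cluster 0 (46.3 to 49.6), while the LPS interval lay below that of cluster 0 (59.7 to 63.3).

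**Figure D5:**
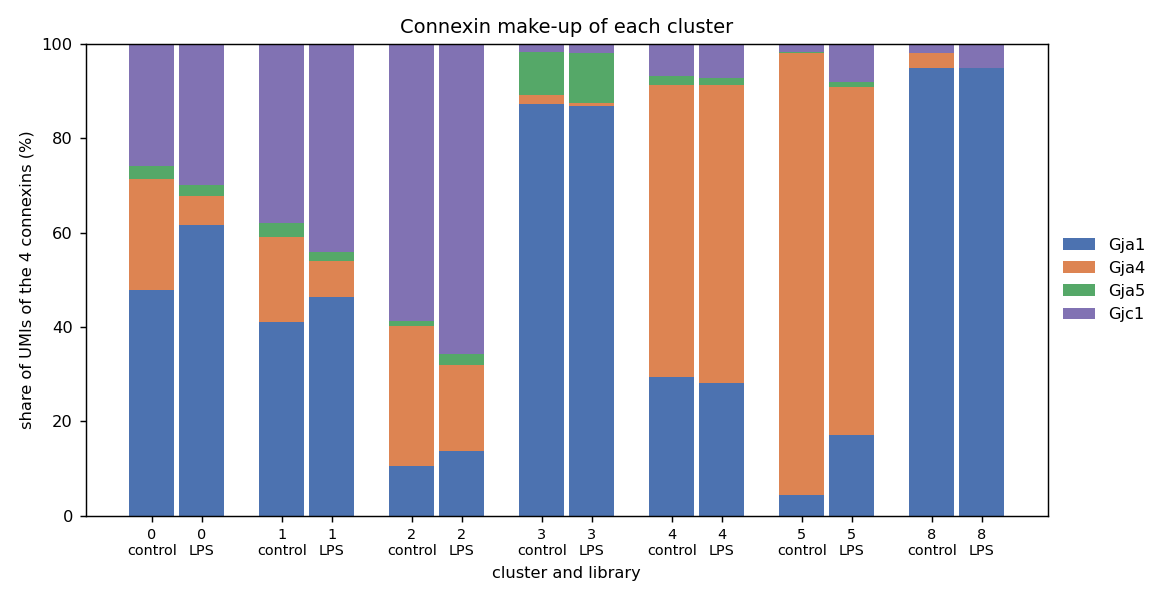
Share of the UMIs of the 4 connexins taken by each gene (stacked to 100%), in clusters 0 to 5 and 8, control and LPS. *Gja1* is the largest part of clusters 3 and 8, *Gja4* of clusters 4 and 5 and *Gjc1* of cluster 2.

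The genes whose levels followed each member most closely over clusters 0 to 9 in both libraries (20 values, Pearson correlation of log2 of CPM plus 1, among 9895 genes) are given as a description, since the values share 2 libraries and the clusters differ in depth. For *Gja1* these were *Dsp* (0.920) and *Dsg2* of the desmosome, *Arhgap21*, *Ptgds* and *Fuca2*. For *Gja4* they were *Notch1* (0.949), *Foxo1*, *Spns2*, *Ctla2a* and *Tbc1d9b*, for *Gja5* *Pdhb* (0.957), *Clic5*, *Lrrc10* and *Ppm1b*, and for *Gjc1* *Mrvi1* (0.909), *Cox4i2*, *Col4a1*, *Myh11* and *Heyl*. *Spns2*, the sphingosine phosphate exporter, stood at 31.3 and 9.89 CPM in cluster 5 and *Notch1* at 77.7 and 53.6 CPM. With Spearman correlation of CPM, 1, 2, 1 and 2 of the 5 genes were shared.

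Of 16 partner genes of the intercalated disc and cell junctions, 14 were in the gene list. In cluster 3 none of the 13 partners with enough UMIs lay past 1.5-fold. There *Dsp*, the desmosomal linker, stood at 376 and 431 CPM. *Jup*, the plakoglobin shared by desmosomes and adherens junctions, stood at 347 and 340 CPM. In cluster 0 *Jup* and the catenins *Ctnnb1* and *Ctnnd1* of adherens junctions were the 3 of 14 partners that lay past 1.5-fold lower, and *Cxadr*, a junctional adhesion receptor, lay past it in the higher direction. In cluster 1 these 4 genes lay past the fold in the same directions, among 13 partners. In cluster 2 *Jup* and *Ctnnd1* were the 2 lower ones of 10. In cluster 4 *Jup*, at 212 and 105 CPM, and *Ctnnb1*, at 5.57 and 2.57 CPM, were lower of 11, and in cluster 5 *Dsp* and *Jup* of 10. The shares of all genes past this fold are those given above, and the median log2 ratio of the partners was -0.31 in cluster 0 and -0.30 in cluster 4, where that of all genes was -0.13 and -0.09. Of the pannexins, which form membrane channels but not gap junctions, *Panx1* stood at 5.93 and 3.39 CPM in cluster 4 and at 5.23 and 3.21 CPM in cluster 2, both past 1.5-fold, and *Panx2* at 0.409 and 0.176 CPM in cluster 0. *Pkp2*, *Ctnna3*, *Ttn* and *Pecam1* were not analysed here.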

How the data were processed

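Single-cell libraries of 2 conditions, 1 per condition, were analysed. The deposited files hold raw UMI counts per gene and cell, whole numbers without normalization, a gene list and the authors' cluster and type for each cell. The submitters' processing notes name Cell Ranger 2.2.0 and Seurat 2.3.4, and the genome build is not given in the sources used here. By the study's methods clusters came from CCA and graph clustering of both libraries. UMIs were summed by cluster and library with pandas 2.3.3, numpy 2.4.6 and scipy 1.17.1 under Python 3.11.15 and divided by the summed UMIs of the cluster. Levels have exact Poisson, shares Clopper-Pearson and ratios exact conditional intervals. No filter on cells was used beyond the authors' cell calls. Doublets were not removed, and 2 control and 8 LPS cells without a cluster were left out. Thinning to 3000 UMIs per cell without replacement left out 79 LPS cells, 4 of which were among those without a cluster. All genes with at least 50 UMIs in a cluster gave the background, past 1.5-fold being called. The members and gene lists were chosen with earlier results of these data known. For each member, the 5 most similar genes were named, and of the junction genes those past 1.5-fold in clusters of at least 500 cells with at least 50 UMIs. Some genes that these rules name are not reported here. The interval procedure was tested on simulated data. Promoter letters came from a RefSeq table.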

Additional observations from a re-analysis of the deposited data

Results flagged for a closer look

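For 2 members, the ratio of LPS to control lay on opposite sides of 1 in different clusters, with counting intervals that exclude 1 on each side. The difference between the clusters was not tested, as there is 1 library per condition. *Gja1* had a ratio of 1.33 in cluster 0 and 1.19 in cluster 1, both fibroblasts, and of 0.798 in endothelial cluster 4. *Gjc1* had a ratio of 1.19 in cluster 0 and 1.22 in cluster 1, and of 0.835 in cluster 2, where the sum of the mural genes was highest.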

How the results depend on the processing

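No paired analysis was possible because saline and LPS gave 1 library each. Of 227 values of 60 results under other settings, 171 stayed within the counting interval of the main value, or within 1.5-fold of a count or share of genes, 55 moved further with no change of sign in a ratio whose interval excludes 0, and 1 reversed. Of the 162 log2 ratios of LPS to control of the members, 153 stayed. Of those whose interval spans 0, 5 changed sign in 8 values: *Gja1* in cluster 2 (-0.03, up to 0.06), *Gja5* in cluster 4 (-0.58, 0.03 thinned), and *Gjc1* in clusters 3 (0.13, -0.09 thinned), 4 (-0.16, up to 0.07) and 5 (-0.13, up to 0.13). *Gja1* in cluster 3 was -0.07 and, over cells with at least 5000 UMIs, -0.16. *Gja4* in cluster 5 was -2.69 and, with clusters 4 and 5 pooled (chosen after seeing the data), -1.26, since cluster 4 holds more UMIs and differed less. *Gja4* in cluster 4 was -0.24, and -0.48 without the 8% of cells with the most UMIs and -0.40 in thinned cells. In thinned cells *Gja1* in cluster 1 was 0.57 in place of 0.25, *Gjc1* in cluster 0 was 0.45 in place of 0.25, *Gja5* in cluster 0 was -0.89 in place of -0.18, and *Gja4* was -2.12 in place of -1.87 in cluster 0 and -2.22 in place of -0.94 in cluster 6. The cause of these moves was not tested. The value of cluster 6 rests on 7 of 281 control and 2 of 290 LPS thinned cells with a *Gja4* UMI, too few to compare libraries. The log2 ratio of the summed venous list in cluster 5 was 0.52 and, without *Selp* (chosen after seeing the data), reversed to -0.43. The share of genes past the fold at 2-fold in place of 1.5-fold was 9.01% in place of 19.7% lower in cluster 0 and 4.41% in place of 13.0% lower in cluster 5, and with at least 200 UMIs per gene 7.94% in cluster 5. Shares of cells with a UMI depend on the depth to which cells are thinned: thinned to 1500 UMIs, *Gja4* was seen in 48.3% of control and 8.80% of LPS cells of cluster 5. The co-detection of *Gja4* and *Gja1* in control cluster 4, 1.69 times independent spread, was 1.13 times at 1500 UMIs. In LPS cluster 4 it was 26 cells against 17.1 and, at 1500 UMIs, 10 cells against 5.09. Outside clusters 0, 3 and 4 *Gja5* had under 20 UMIs in the LPS library, and such counts give intervals too wide to compare libraries.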
